A study of Rattus norvegicus with 3 samples.

Results

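The genes for the platelet-derived growth factors (PDGF) and their receptors were followed across the cells of the rat thymic stroma. They are 6 of the 34034 genes in the count table: the 4 ligand genes Pdgfa, Pdgfb, Pdgfc and Pdgfd and the 2 receptor genes Pdgfra and Pdgfrb. They were taken by name, and all 6 were found and passed the minimum of 100 UMIs used below. The study placed a droplet single-cell RNA library of stromal cells, a second library of thymocytes and a spatial section side by side, all from thymi of 8-week-old rats of the inbred Lewis strain, with no treatment or genotype named. The stromal cells had been freed by Liberase TH and DNase I and enriched, by magnetic beads and then by sorting, for cells without CD45, the surface protein of blood cells. The thymocytes had been freed with collagenase D and DNase I. Each group had 1 sample, and how many animals went into it is not stated in the sources used here, so no test was run and every comparison describes these libraries. The tables of the section used here hold totals, regions and labels and no counts per gene, so the section is not analysed here.

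PDGFs are secreted dimers that bring 2 receptor tyrosine kinases together on the surface of mesenchymal cells, which then grow, migrate or contract. PDGF-A and PDGF-C act through PDGFRα, PDGF-B acts through PDGFRα and PDGFRβ, and PDGF-D acts mainly through PDGFRβ. PDGF-C and PDGF-D are secreted in a latent form that proteases such as tissue plasminogen activator and urokinase open. In many tissues endothelial PDGF-B draws pericytes with PDGFRβ to the vessel wall, and in the thymus PDGFRα is widely used as a marker of the mesenchyme that surrounds and enters the lobules.

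The stromal library held 16160 barcodes, of which 13226 were annotated by the authors. Their sum was 131624350 UMIs (unique molecular identifiers, 1 for each RNA molecule caught), and cells ranged from 621 to 55374 with the median at 9087.5. Levels are in CPM, the UMIs of a gene in a label for each 1000000 UMIs of that label, with exact 95% Poisson intervals that cover counting error only. Each cell carried the label projected onto it by the authors or, where none was given, their first cluster, and 24 of 29 labels had at least 20 cells. By name, 8216 cells were fibroblasts (TMC1, TMC2, TMC3, TMC4 and capFb), 452 mural cells (vSMC/PC), 1072 endothelial (aEC, capEC and vEC, read here as arterial, capillary and venous), 2304 epithelial (TEC labels and TEPC) and 1095 blood-derived. The files do not spell out TMC, capFb, MEC, nmSC or aaTEC. The labels were made from these same counts, so a level by label is a description of the label.

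The marker lists matched most labels. The 9 fibroblast markers summed to 63919 CPM in capFb, 54050 in TMC1, 42024 in TMC2 and 24542 in TMC3. TMC4 was lower, at 10870 CPM, and held 4932 CPM of the 7 contractile smooth muscle markers beside 9165 in vSMC/PC. Most of that sum was Tagln (4114 CPM) and Des (644 CPM). Myh11, Actg2 and Lmod1 stood at 998, 87.2 and 229 CPM in vSMC/PC and at or below 99.9, 5.76 and 52.0 in TMC4. The epithelial label mTEC1 held 2498 CPM of the same list. The 7 arterial markers set aEC and capEC little apart, at 1028 and 899 CPM, against 309 in vEC. Gja4 and Hey1 were highest in aEC, but Gja5, Sox17 and Dll4 in capEC, Bmx in vEC and Efnb2 in mTEC-prol. Arterial and capillary are thus only a reading of the label names. The label aaTEC2 went against its name, as its 29 cells held 38714 CPM of fibroblast markers and 1172 CPM of epithelial markers. The cells labelled Myeloid matched their list only in part, at 165 CPM, below the 233 CPM of the label MEC. Itgam (85.0 CPM), Cd68 (47.7 CPM) and Xcr1 (3.64 CPM) were highest in Myeloid, while C1qa, C1qb and Siglech were at 0 there. Csf1r and Flt3 were highest in MEC, at 19.0 and 213 CPM against 17.1 and 2.15 in Myeloid. Aif1 was highest in mTEC-prol, at 74.6 CPM. Fibroblast transcripts were also found in labels of other classes, at 3427 CPM in Myeloid, 4620 in capEC, 4864 in early Pr and 15013 in Thymocyte. Barcodes shared by both libraries numbered 38, of which 28 were annotated in both.

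**Figure D1:**
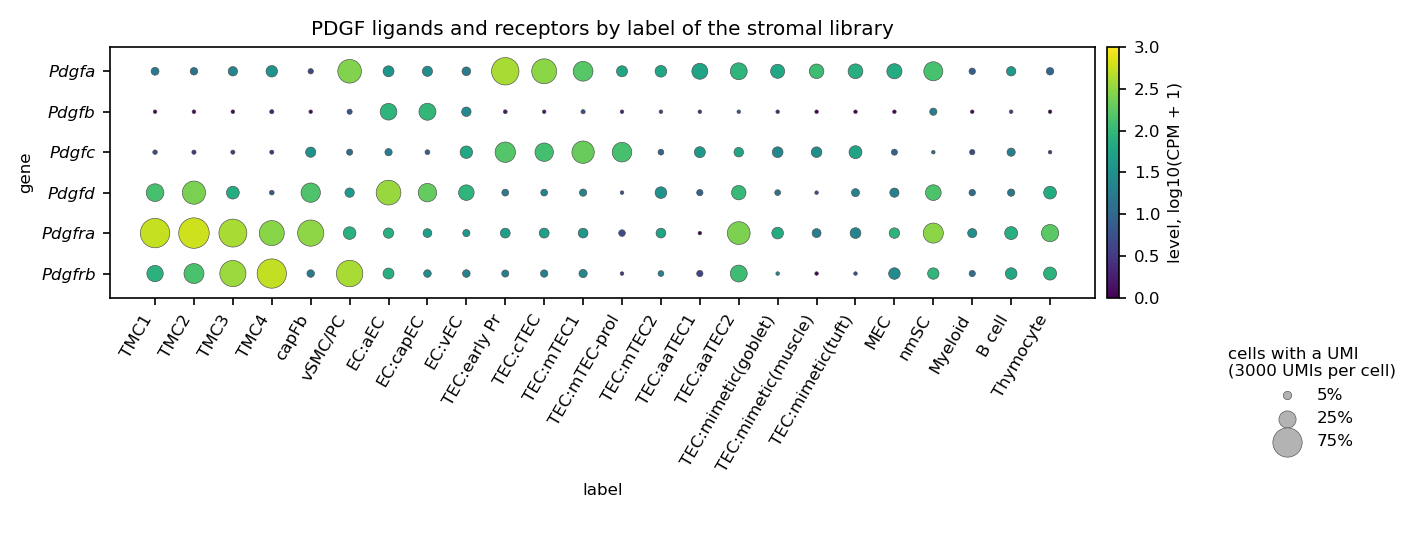
The 6 genes (rows) in the 24 labels of at least 20 cells (columns). Colour gives the level as log10(CPM + 1), and dot area the percent of cells with a UMI after every cell was thinned to 3000 UMIs. The receptors fill the fibroblast columns at the left, Pdgfb the endothelial columns, Pdgfa and Pdgfc the first epithelial columns, and Pdgfd is spread over endothelial and fibroblast labels.

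The highest label of each of the 6 genes was followed closely by another. Among the 16162 genes that reached 100 UMIs, 5.59% led in 1 label by 3-fold or more over the second label, counting leads of 20 UMIs and up, and 0 of the 6 did, a count too near that share to set them apart. The lead of the highest label over the next was 1.34-fold for Pdgfa, 1.11 for Pdgfb, 1.30 for Pdgfc, 1.40 for Pdgfd, 1.09 for Pdgfra and 1.33 for Pdgfrb. With labels put in order of level, the interval of the ratio left out 1 for 7 of 23 neighbouring pairs for Pdgfra, 6 for Pdgfa, 5 for Pdgfd and for Pdgfrb, 4 for Pdgfc and 1 for Pdgfb. The ratios between classes were larger.

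Pdgfra, the receptor for PDGF-A and PDGF-C, was read in every fibroblast label. It stood at 589 CPM (580 to 599) in TMC2, 539 (527 to 552) in TMC1, 402 (390.1 to 414) in TMC3, 309.6 (301 to 318) in capFb and 290.4 (281 to 300.4) in TMC4. These 5 labels span little more than a factor of 2, with TMC2 2.03-fold above TMC4 (1.95 to 2.11), and together they held 92.7% of all annotated Pdgfra UMIs. At least 1 UMI was found in 96.6% of TMC2 cells, 95.9% of TMC1, 90.9% of capFb, 87.7% of TMC3 and 81.5% of TMC4. The small label nmSC lay among them, at 303 CPM in 39 cells, and held 22717 CPM of fibroblast markers. Next came aaTEC2 at 254 CPM (29 cells) and Thymocyte at 169.6, both of which held many fibroblast transcripts. The other labels ranged from 85.4 CPM in MEC to 3.66 in mTEC-prol and 0 UMIs in aaTEC1, where 3 UMIs are 4.76 CPM. MEC also held many fibroblast transcripts, at 18075.5 CPM of the markers.

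Pdgfrb, the receptor for PDGF-B and PDGF-D, followed another order. TMC4 was highest at 534 CPM (520.4 to 547), followed by vSMC/PC at 402 (381 to 424) and TMC3 at 356 (345 to 368). TMC2 stood at 136 CPM, TMC1 at 82.3 and capFb at 15.7 (13.8 to 17.7). TMC4 was 34.1-fold above capFb (30.1 to 38.8) for Pdgfrb, whereas for Pdgfra the same labels differed 0.94-fold (0.90 to 0.98). A UMI was found in 94.9% of TMC4 cells, 85.9% of TMC3, 83.4% of vSMC/PC, 63.8% of TMC2 and 49.8% of TMC1. The remaining labels ran from 117 CPM in aaTEC2 to 0 UMIs in mimetic(muscle).

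The balance of the receptors therefore shifted across the fibroblasts. Of the UMIs of both receptors together, Pdgfra made up 95.2% in capFb (exact Clopper-Pearson interval 94.6 to 95.8), 86.8% in TMC1, 81.2% in TMC2, 53.0% in TMC3, 35.2% in TMC4 (34.3 to 36.2) and 16.4% in vSMC/PC (14.6 to 18.3). These shares compare the same genes between labels and do not rank a gene against another. The intervals of neighbours in this order did not overlap. Along the order from capFb to TMC4 the fibroblast marker sum also went down at each step, from 63919 to 10870 CPM, and its part in the shares was not tested.

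Single cells held both receptors about as often as independent detection gives. With every cell thinned to 3000 UMIs, a UMI of both was found in 42.0% of 1213 TMC4 cells (39.2 to 44.9), where the product of the separate shares is 40.6%. The shares were 40.5% against 40.4% in TMC3, 28.1% against 27.7% in TMC2, 16.7% against 17.1% in TMC1 and 2.75% against 2.30% in capFb. In vSMC/PC, 53.3% of cells had Pdgfrb alone, 5.38% Pdgfra alone and 7.58% both. Cells read with both receptors were most frequent in TMC4 and TMC3 at this depth, and in the 5 fibroblast labels the share with both lay within counting error of the product.

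**Figure D2:**
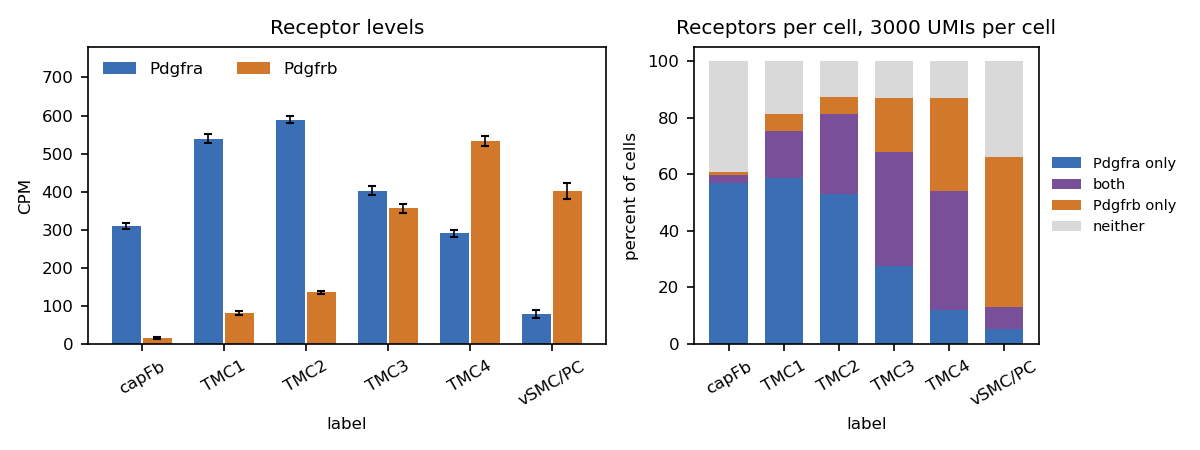
Left, CPM of Pdgfra and Pdgfrb in 5 fibroblast labels and vSMC/PC, with exact 95% Poisson intervals as bars. Right, percent of cells with a UMI of Pdgfra alone, both, Pdgfrb alone or neither, at 3000 UMIs per cell. From capFb to vSMC/PC the Pdgfrb part grows, and cells with both are most frequent in TMC4 at 42.0% and TMC3 at 40.5%. Bars of different genes are not compared with each other.

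In endothelial, epithelial and blood-derived cells, most receptor UMIs lay in cells that also held fibroblast transcripts. Cells were set apart by whether they held at least 20 UMIs of Col1a1, Col1a2, Col3a1, Dcn and Lum, a split chosen after seeing the data. In endothelial cells Pdgfra was 4.20 CPM in 967 cells below that number and 216 CPM (195 to 239) in the other 105. In epithelial cells it was 3.62 CPM in 1969 cells and 199 CPM in 335, and in blood-derived cells 3.95 CPM in 902 cells and 219.7 CPM in 193. Pdgfrb gave 12.2 against 95.2 CPM in endothelial cells, 3.44 against 78.5 in epithelial cells and 3.16 against 119 in blood-derived cells. In cells with few fibroblast transcripts, a Pdgfra UMI was found in 2.69% of endothelial, 3.61% of epithelial and 2.88% of blood-derived cells, at medians of 6630, 10688 and 4524 UMIs per cell, and no difference between these classes is read from them. Cells with at least 20 such UMIs were also deeper, with medians of 16710, 18548 and 14591 UMIs.

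In vSMC/PC the genes parted. Pdgfrb was 446 CPM (413 to 482) in the 280 cells with under 20 fibroblast UMIs and 366 CPM (339.6 to 395) in the 172 others. Pdgfra was 10.7 CPM (6.14 to 17.4) in the first and 132 (116 to 149.7) in the second. Pdgfrb was thus high in mural cells with and without fibroblast transcripts, while 249 of the 265 Pdgfra UMIs of that label were in cells that held them. Whether cells captured together or free RNA brought these UMIs was not tested.

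**Figure D3:**
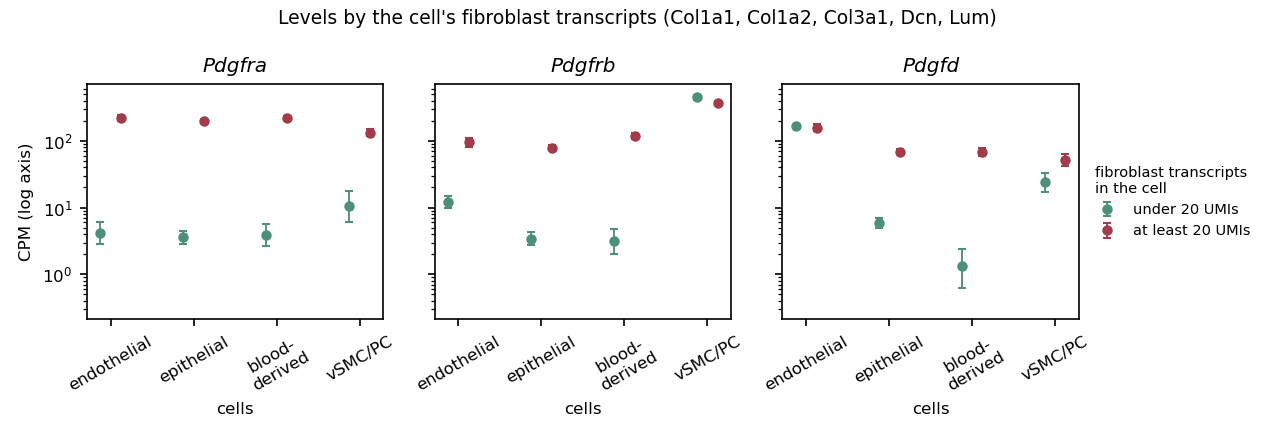
CPM (log axis) of Pdgfra, Pdgfrb and Pdgfd in endothelial, epithelial, blood-derived and vSMC/PC cells with under 20 or at least 20 UMIs of 5 fibroblast genes. Points are levels and bars exact 95% Poisson intervals. Pdgfra lies at 3.62 to 10.7 CPM in the cells with few fibroblast transcripts, whereas Pdgfrb in vSMC/PC and Pdgfd in endothelial cells stay high in them.

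Between classes, the receptors separated fibroblasts from endothelium and epithelium. Fibroblasts stood 9.96-fold (9.03 to 11.0) above endothelial cells for Pdgfra and 6.67-fold for Pdgfrb. Past 3-fold, 2 of the 6 genes were higher in fibroblasts, where 12.7% of all genes were, and 2 lower (Pdgfb and Pdgfc), where 10.6% were. Against epithelium, Pdgfra was 9.86-fold, Pdgfrb 9.59-fold and Pdgfd 7.44-fold higher in fibroblasts, 3 of 6 beside 10.1% of all genes, and the other 3 were lower beside 14.9%. Against mural cells, Pdgfra was 5.78-fold and Pdgfd 3.68-fold higher, 2 of 6 beside 5.15%, and Pdgfa and Pdgfb were lower, beside 9.5%. Mural cells exceeded endothelial cells 14.2-fold for Pdgfrb (12.4 to 16.3). Without cells that carried markers of another class, several of these ratios were larger: Pdgfra in fibroblasts was 109-fold above endothelium, 132-fold above epithelium and 44.3-fold above mural cells, Pdgfrb was 17.3-fold above endothelium and 73.1-fold above epithelium, and Pdgfd was 32.3-fold above epithelium and 6.83-fold above mural cells. Pdgfrb in mural cells was then 37.7-fold above endothelium. Pdgfc in fibroblasts was then 0.18-fold of endothelium and 0.036-fold of epithelium, and Pdgfb 0.27-fold of epithelium, against 0.27, 0.058 and 0.16 with all cells. The filter took cells with at least 20 fibroblast UMIs out of the other classes. Most Pdgfra UMIs of those classes lay there, as did most Pdgfrb UMIs of endothelium and epithelium. Epithelial Pdgfd was also higher in those cells, as given below. The larger ratios of Pdgfra and Pdgfrb, and of Pdgfd over epithelium, thus follow from the filter and are no separate result. The larger ratio of Pdgfd over mural cells is not read as one either. It also left out 38.4% of capFb and 40.5% of vSMC/PC cells.

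TMC4 differed from the other fibroblast labels in 4 of the 6 genes past 3-fold. Pdgfrb was 4.09-fold higher (3.96 to 4.23) and Pdgfb 7.13-fold higher, the latter on 11 UMIs against 9. Pdgfd was lower, at 5.97 CPM against 169 (0.035-fold, 0.027 to 0.045), and so was Pdgfc, at 1.47 against 9.41. Of the 635 Pdgfc UMIs in those other labels 508 were in capFb, and neither TMC2 (1.30-fold of TMC4, 0.74 to 2.40) nor TMC3 (1.54-fold, 0.80 to 3.06) was apart from TMC4 beyond counting error. Among all genes, 7.37% were past 3-fold higher and 7.36% lower in this comparison. Pdgfa, at 33.7 CPM, was 2.69-fold above the other labels, and Pdgfra 0.60-fold.

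Among the ligands, Pdgfa and Pdgfc each had their highest label in epithelium. As classes and with all cells, epithelial and mural cells were close for Pdgfa, at 268 and 269.5 CPM, while for Pdgfc they stood at 142 and 10.4. Without cells that carried markers of another class, Pdgfa in fibroblasts was 0.045-fold of mural cells and 0.057-fold of epithelium. Both ratios were 0.058 with all cells. Pdgfa, whose product is a ligand of PDGFRα, reached 399.7 CPM (389 to 411) in early Pr, 299 (284 to 314) in cTEC, 269.5 (252 to 288) in vSMC/PC and 162 (152 to 172) in mTEC1. A UMI was found in 94.4% of early Pr cells, with a median of 4 per cell, and in 78.6% of cTEC, 68.0% of mTEC1 and 65.9% of vSMC/PC cells. Epithelial cells held 74.8% of all Pdgfa UMIs and mural cells 8.77%. The small labels nmSC (134 CPM) and mimetic(muscle) (115 CPM) came next, and their intervals overlapped that of mTEC1 or each other. Fibroblast labels were low, from 33.7 CPM in TMC4 and 21.7 in TMC3 to 15.7 in TMC1, 13.0 in TMC2 and 3.03 in capFb.

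Pdgfc, whose product is the latent ligand of PDGFRα, was highest in mTEC1 at 201 CPM (190.5 to 213), followed by early Pr at 155 (148 to 162), mTEC-prol at 131 (112 to 152) and cTEC at 128 (118 to 138). The last 2 did not differ beyond counting error. In mTEC2 it was 8.00 CPM (7 UMIs), so that mTEC1 stood 25.2-fold above it (12.2 to 62.7), while for Pdgfa the same labels differed 2.72-fold (2.06 to 3.67). Early Pr stood above mTEC1 for Pdgfa (2.47-fold, 2.31 to 2.65) and below it for Pdgfc (0.77-fold, 0.72 to 0.83). Of the UMIs of the 4 ligands, Pdgfc made up 27.1% in early Pr, 28.5% in cTEC, 51.9% in mTEC1 and 67.5% in mTEC-prol. Both genes were read in 24.1% of early Pr cells at 3000 UMIs per cell, beside a product of 23.3%. Epithelial Pdgfa and Pdgfc did not come with fibroblast transcripts: Pdgfa was 294 CPM in cells with few and 174 in cells with many, and Pdgfc was 154 CPM (149 to 159) in cells with few and lower, with an interval of 92.3 to 108 CPM, in cells with many.

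Within an epithelial label, the authors' first clusters also differed. Among mTEC1 cells, those from TEC-b had 283 CPM of Pdgfa and 171 of Pdgfc, whereas those from TEC-d had 98.8 of Pdgfa and 239 of Pdgfc. Among cTEC, TEC-b gave 370.2 CPM of Pdgfa (350.1 to 391), TEC-c 195 and TEC-a 54.5 (37.2 to 76.9), and Pdgfc was 156, 88.2 and 8.51 CPM in the same order. The TEC-c cells of these labels also held receptor UMIs, with Pdgfra at 215 CPM in early Pr and 219 in cTEC against 10.7 and 7.06 in TEC-b. They were deeper, with medians of 18540.5 and 17483 UMIs against 10626.5 and 10757. Pdgfd was higher in them too, at 66.9 and 89.3 CPM against 4.43 and 3.23. The part of depth and of fibroblast transcripts in these levels was not tested. This look within labels was added after seeing the data.

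The starts of these 2 ligand genes are shown because the highest label of each is epithelial. Each sequence runs from 250 bases before to 50 after the RefSeq start, on the gene's own strand, in the build GRCr8. In Pdgfc the 50 bases after the start begin with atg, the letters of a start codon. Whether the transcript begins at that position was not tested, so this window may not hold the promoter. Pdgfa lies at chr12:20759116-20759415 on the plus strand and Pdgfc at chr2:168614918-168615217 on the plus strand. Capitals mark a GC box, searched as GGGCGG or its reverse complement CCGCCC.

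Pdgfa: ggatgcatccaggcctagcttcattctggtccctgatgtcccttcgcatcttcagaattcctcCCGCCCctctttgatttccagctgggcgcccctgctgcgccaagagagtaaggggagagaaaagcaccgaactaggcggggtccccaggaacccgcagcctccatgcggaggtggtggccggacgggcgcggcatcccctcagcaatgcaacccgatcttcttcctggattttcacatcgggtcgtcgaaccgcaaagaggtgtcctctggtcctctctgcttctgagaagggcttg

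Pdgfc: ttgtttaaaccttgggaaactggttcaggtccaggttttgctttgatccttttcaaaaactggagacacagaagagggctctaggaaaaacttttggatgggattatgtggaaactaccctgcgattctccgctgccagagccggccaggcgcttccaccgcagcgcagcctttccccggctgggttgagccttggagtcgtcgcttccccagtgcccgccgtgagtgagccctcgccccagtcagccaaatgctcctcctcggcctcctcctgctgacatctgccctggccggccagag

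The Pdgfa window holds 1 GC box at a GC content of 60%, and the Pdgfc window holds none at 58%. A GC box was found in 33.1% of 33469 rat promoter windows of this length, whose median GC content was 51.7%. Of the 5 genes with an entry, Pdgfb (62% GC) and Pdgfd (60%) also held 1 GC box each, and Pdgfra (48%) held none. None of the 5 windows held TATAAA on either strand, which 14.2% of all windows did. A match or its absence is a description of these letters only. For Pdgfc, whose window may not hold the promoter, the absence of a GC box is not read as a trait of the gene.

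Pdgfb, whose product vessels use to hold mural cells, was highest in endothelium. It stood at 97.1 CPM (88.2 to 107) in capEC, 87.4 (68.1 to 110.4) in aEC and 25.4 (20.5 to 31.2) in vEC. The first 2 did not differ beyond counting error (1.11-fold, 0.86 to 1.45), and aEC stood 3.44-fold above vEC (2.48 to 4.74). Endothelial cells together held 86.4% of the Pdgfb UMIs, at a level 87.8-fold above all other cells (70.6 to 110.4). No other label passed 20 CPM: nmSC gave 17.6 on 5 UMIs, vSMC/PC 4.74 and mTEC1 4.04, and fibroblasts together 0.25. Cells from the authors' cluster Endo-1 gave 130 CPM in aEC and 111 in capEC, and those from Endo-2, which held 171 and 189 CPM of Pdgfra, gave 37.9 and 43.9. Without the cells that carried markers of another class, capEC stood at 0.92-fold of aEC, so the direction between these labels turned.

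Pdgfd, whose product is the latent ligand of PDGFRβ, had more than a single source. The label aEC was highest at 343 CPM (304 to 386), then TMC2 at 245 (240 to 251), capEC at 190.4 (178 to 204), capFb at 144 (138 to 149.6), TMC1 at 129 (123 to 135), vEC at 88.7 and TMC3 at 68.5 (63.6 to 73.7). TMC4 was near the bottom at 5.97 CPM. Endothelial and fibroblast cells as classes were close (163 and 145 CPM), but fibroblasts, being more numerous, held 82.6% of the UMIs and TMC2 alone 47.2%. In endothelial cells Pdgfd did not come with fibroblast transcripts, at 165 CPM (155 to 174) in cells with few and 157 (139 to 177) in cells with many. In aEC the same split gave 442 and 194 CPM. In epithelial cells it gave 5.82 and 68.8. In the Thymocyte label it gave 0 UMIs in 342 cells, where 3 UMIs are 3.24 CPM, and 144 CPM in 69.

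**Figure D4:**
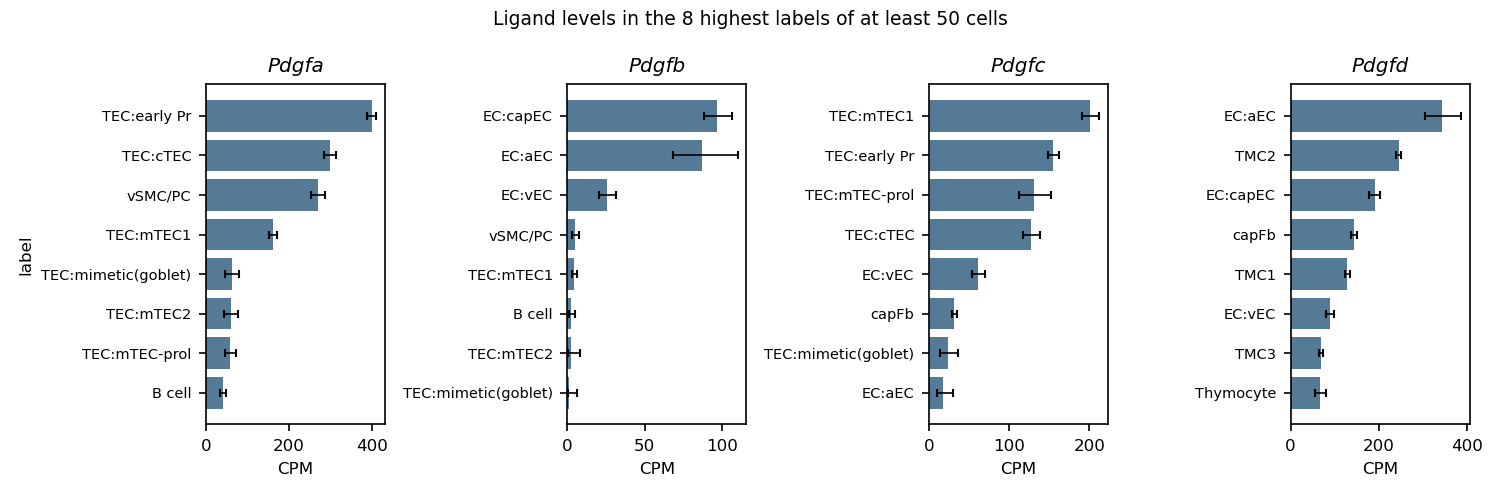
CPM of each ligand in its 8 highest labels of at least 50 cells, with exact 95% Poisson intervals as bars and each horizontal axis starting at 0 on its own scale. Pdgfa and Pdgfc are led by epithelial labels, with vSMC/PC at 269.5 CPM the exception for Pdgfa. Pdgfb is led by 3 endothelial labels, and Pdgfd mixes endothelial and fibroblast labels.

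Ligand and receptor were read in the same cell most often in TMC2, among the ligand and receptor pairs known to bind. Pdgfd and Pdgfrb were found together in 16.2% of TMC2 cells at 3000 UMIs (14.9 to 17.6), beside a product of 15.9%, and in 1.26% of capFb and 3.67% of vSMC/PC cells. Pdgfa and Pdgfra were found together in 4.78% of TMC4 cells (product 5.72%) and 3.79% of early Pr cells (product 4.82%). Pdgfb and Pdgfrb were together in 1.04% of endothelial cells. Of the fibroblast labels capFb was highest for Pdgfc, at 31.4 CPM (28.8 to 34.3), 13.7-fold above TMC1 to TMC4 together (11.4 to 16.6), and 4.90% of its cells had Pdgfc with Pdgfra (product 4.82%).

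Within vSMC/PC, Pdgfa and Pdgfrb ran in opposite directions. The cells were split by whether contractile markers (Myh11, Acta2 and others) or pericyte markers (Rgs5, Kcnj8 and others) gave more UMIs. Pdgfrb was 561 CPM (517 to 608) in the 161 cells with more pericyte UMIs and 329 (306 to 353) in the 287 with more contractile UMIs, 1.71-fold higher (1.53 to 1.90). Pdgfra was higher in the pericyte set by a like factor (1.72-fold, 1.33 to 2.20), and so was Pdgfd (1.64-fold, 1.14 to 2.35). Pdgfa was 315 CPM (293 to 339) in the contractile set and 168 (144 to 195) in the pericyte set, 1.88-fold higher (1.59 to 2.22). The split is a range and not a pair of types: 4 cells were tied and left out, and 24 lay within 2 UMIs of the border. Fibroblast markers summed to 9221 CPM in the contractile set and 10362 in the pericyte set, and their part in these ratios was not tested.

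**Figure D5:**
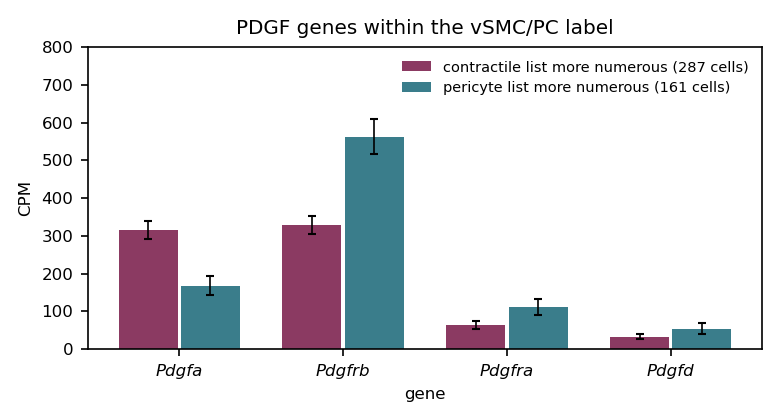
CPM of Pdgfa, Pdgfrb, Pdgfra and Pdgfd in vSMC/PC cells split by the marker list with more UMIs, with exact 95% Poisson intervals as bars. Pdgfa is higher in the contractile set (315 against 168 CPM) and Pdgfrb in the pericyte set (561 against 329 CPM).

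The genes most like each member were found by the Pearson correlation of log2(CPM + 1) over the 18 labels with 50 cells or more, for 13111 genes that reached 200 UMIs. The labels share 1 library and fibroblast transcripts reach many of them, so r is given as a description. For Pdgfra they were Pdzrn3 (r = 0.99), Epha3, Lum, C7 and Dpt, all highest in TMC2 as Pdgfra is. For Pdgfrb they were Kcnj8 (r = 0.98), a potassium channel gene of pericytes, Gucy1a2, Rerg, Ednra, the endothelin A receptor, and Agmo. For Pdgfb they were Fam124b (r = 0.96), Nos3, the endothelial nitric oxide synthase, Aplnr, Tmem255b and Klhl4. For Pdgfd they were Adarb1 (r = 0.93), Fbln5, an elastic fibre protein, Enpp3, Sult1a1 and Dchs1. For Pdgfa they were Hspb2 (r = 0.93), Ajuba, Plekhg6, Plxnb1 and Trabd2b, and for Pdgfc Csrp2 (r = 0.89), Plekha7, Anxa2, Ntf4 and Nexmif. Among the members themselves, Pdgfra and Pdgfrb gave r = 0.73, Pdgfa and Pdgfc 0.57 and Pdgfc and Pdgfrb -0.66.

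The genes that open the ligands, or inhibit the proteases that do, included large differences within the fibroblasts. Of 10 ligand-processing genes, 2 were past 3-fold higher and 4 lower in TMC4 than in the other fibroblast labels, beside 7.37% and 7.36% of all genes, with a median of -0.19 on the log2 scale beside 0.11 for all genes. Plau, which encodes urokinase, stood at 21.9 CPM in TMC4 against 261, the convertase gene Pcsk6 at 2.16 against 159 and Pcsk5 at 28.3 against 167. Serpine2, a protease inhibitor, stood at 161 against 691. Fibroblasts as a class exceeded epithelium in 5 of the 10, beside 10.1% of all genes, among them Pcsk6 at 136 against 14.2 CPM and Plau at 226 against 38.4. St14, which encodes the epithelial protease matriptase, was the gene past 3-fold lower, beside 14.9%, at 7.24 against 41.5 CPM. Against endothelium 3 were higher, beside 12.7%, and 0 lower, beside 10.6%. Against mural cells 4 were higher, beside 5.15%, and 0 lower, beside 9.5%. The higher genes included Plat, the tissue plasminogen activator gene, at 111 against 32.0 CPM.

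Of 10 genes for extracellular binding and co-receptors, 3 were higher and 2 lower in TMC4, beside the same 7.37% and 7.36%. Thbs1, encoding thrombospondin 1, stood at 226 CPM against 17.7, and Cd44 at 262 against 44.6. Lrp1, an endocytic receptor that also binds PDGFRβ, stood at 167 against 977, and Sparc, a matrix protein that binds PDGF-B, at 1737 against 5993. In fibroblasts against endothelium Lrp1 was 9.51-fold higher, 859 against 90.2 CPM.

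The next lists hold genes downstream of the receptors. Of 19 signal relay genes 0 were past 3-fold between fibroblasts and mural cells, beside 5.15% of all genes higher and 9.5% lower. In TMC4 1 was higher, near the 7.37% of all genes: the adaptor gene Gab1, at 475 CPM against 136 in the other fibroblast labels. Against endothelium 3 were higher, beside 12.7% of all genes, with the kinase gene Src at 24.3 against 2.93 CPM, and 1 lower, beside 10.6%, the kinase subunit gene Pik3cb at 3.03 against 29.6. Of 12 restraint genes, 3 were higher in fibroblasts than in endothelium, beside the same 12.7%, with Spry1 at 178 against 43.4 CPM and Spry2 at 124 against 34.4. Only 1 was lower, beside 10.6% of all genes: Socs3, at 94.3 against 361. Dusp6 and Spry4 were higher in fibroblasts than in epithelium, 2 of 12 beside 10.1% of all genes, at 145 against 34.1 and 37.5 against 5.56 CPM.

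Immediate early genes are switched on by growth factor signals and also by tissue digestion. Of 11, 6 were past 3-fold lower in fibroblasts than in endothelium, where 10.6% of all genes were, with Ier2 at 128 against 982 CPM, Atf3 at 83.7 against 414 and Fos at 482 against 1922. Against mural cells 3 were lower, beside 9.5% of all genes, with Fos at 482 against 2343 CPM. In TMC4 0 were past 3-fold, beside 7.37% of all genes higher and 7.36% lower. Against epithelium 0 were, beside 10.1% higher and 14.9% lower. The part of the digestion in these levels was not tested.

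Among 14 related receptors and ligands, the VEGF receptor genes Flt1 and Kdr were endothelial, at 1549 and 526 CPM against 1.70 and 1.19 in fibroblasts. Vegfa stood at 185 CPM in fibroblasts against 26.3 in endothelium and was highest in capFb at 358. Pgf, which encodes a placental growth factor of the VEGF family, was highest in TMC4 at 53.1 CPM, against 6.51 in the other fibroblast labels. Kitlg, the ligand gene for KIT, was highest in capEC at 694 CPM, and Il34, which encodes a ligand of CSF1R, in vSMC/PC at 347.

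The thymocyte library was also read for all 6 genes, but it is no measure of background in the stromal library. Outside the label B+myeloid, its 8376 cells held 5 UMIs of Pdgfa, 6 of Pdgfb, 0 of Pdgfc, 4 of Pdgfd, 3 of Pdgfra and 3 of Pdgfrb, or at most 0.097 CPM. For Pdgfc 0 UMIs allow up to 0.048 CPM at 3 UMIs. The 170 cells labelled B+myeloid, in contrast, held 215 Pdgfc UMIs (89.9 CPM) in 37 cells (21.8%), and 52 of Pdgfa (21.8 CPM). The 37 cells held 15598 CPM of the myeloid list, against 3607 in the other 133. The megakaryocyte and platelet list stood at 729.6 against 136 CPM, with a UMI in 75.7% against 26.3% of cells. The epithelial list stood at 382 against 199.7 CPM, with a UMI in 75.7% against 27.1% of cells. The 37 cells were also deeper, with a median of 16087 UMIs against 9546, and the part of these lists and of depth in the Pdgfc level was not tested. Libraries are set side by side only, since they were made and sequenced separately.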

How the data were processed

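UMI counts per gene and barcode were used as the authors deposited them for the stromal and thymocyte libraries. Per the file headers, Cell Ranger 8.0.0 wrote them, and the submitters' processing notes also list Seurat 5.3.0 and the genome build mRatBN7.2. The annotation and the use of strand are not given in the sources used here. Cell labels are the authors' deposited ones, and the percent of mitochondrial UMIs that the authors deposited per cell entered no filter here. Members and lists were chosen with earlier results of these data known.

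UMIs were summed per label or class, because cells of a library are not replicates, and divided by the total of that label. Labels of at least 20 cells were described. Ratios carry exact conditional intervals and shares exact Clopper-Pearson intervals, all at 95%. Below 3 UMIs a ratio was taken against 3 UMIs. Past the fold means at least 3-fold among genes with at least 100 UMIs. For shares, cells were thinned to 3000 UMIs with seed 7, which left out 765 shallower cells. No doublet caller was run. Instead, cells with at least 3 UMIs of another class's list, or 20 fibroblast UMIs, were left out as an alternative. The other alternatives were cells of at least 3000 UMIs, cells below the 99th percentile of UMIs of their label, CPM averaged over cells, scaling by totals that leave out mitochondrial, ribosomal protein and haemoglobin genes, thinned cells, and the first cluster as label, which changes only labels with a projected name. The genes named are the 6 members, the 5 genes most like each, the genes of each pathway list past 3-fold (at most 4 a direction) and marker genes. A gene of the processing list is counted but not reported here by its values. Highest labels of related genes and the split by fibroblast UMIs were chosen after their values were seen. Rules were tested on simulated data. The software was pandas 2.3.3, SciPy 1.17.1, NumPy 2.4.6 and Python 3.11.15. Promoter windows are from RefSeq (GRCr8), where 5 of 6 members matched. This build differs from that of the counts, and no count was joined to a coordinate.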

Additional observations from a re-analysis of the deposited data

Results flagged for a closer look

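The 2934 stromal barcodes to which the authors gave no annotation, used in no comparison above, also held UMIs of all 6 genes: 519 of Pdgfa, 36 of Pdgfb, 645 of Pdgfc, 374 of Pdgfd, 831 of Pdgfra and 631 of Pdgfrb. These barcodes were shallow, with a median of 1219.5 UMIs. Pdgfc was higher in them than in annotated cells, at 74.5 CPM (68.8 to 80.4) against 39.2, whereas Pdgfra was lower at 95.9 against 294 CPM, as were Pdgfrb at 72.8 against 133, Pdgfd at 43.2 against 105 and Pdgfa at 59.9 against 78.8. Pdgfb, at 4.16 CPM (2.91 to 5.75) against 5.25, was not apart beyond counting error, and neither was Pdgfa in the barcodes with more than 500 genes (74.4 CPM, 67.8 to 81.4). Of the Pdgfc UMIs, 632 lay in the 895 barcodes with more than 500 genes (99.2 CPM) and 13 in the 2039 with fewer (5.68 CPM).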

How the results depend on the processing

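No paired analysis was possible because there is 1 sample per group. No ratio whose interval left out 1 changed direction under the alternatives listed above. Of the 900 levels per label and setting, 670 stayed inside the counting interval, as did 195 of 252 ratios; the shares of cells moved with the depth of thinning in 185 of 288, and the shares of cells with both genes of a pair in 95 of 192. Without cells that carried markers of another class, Pdgfd in aEC over TMC2 was 1.80 (1.40 as reported), Pdgfrb in TMC4 over vSMC/PC 1.19 (1.33 as reported), and in TMC4 over the other fibroblast labels Pdgfra was 0.576 and Pdgfrb 3.73. With thinned cells Pdgfrb in TMC4 over vSMC/PC was 1.45, and with the mean of the cells' CPM Pdgfrb in TMC4 over the other fibroblast labels was 3.89. With the first cluster as label, 1483 genes had a highest label 3-fold above the next, against 903. Of the 5 genes most like Pdgfb, 0 were kept with Spearman's rho and 2 with labels of at least 20 cells, so that list was not stable; for the others 2 to 4 were kept. The causes were not tested. Labels such as aEC (90 cells) and nmSC (39 cells) limit the precision of small differences, and all intervals leave out variation between animals, which 1 library cannot show.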
